A study of Mus musculus with 60 samples.

Results

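The circadian clock genes described here are 10 of the 46480 genes in the RNA-Seq tables of mouse dorsal and ventral dentate gyrus (DG). They are the activators *Npas2*, *Clock* and *Arntl*, the repressors *Per1*, *Per2* and *Cry1*, the second-loop repressor *Nr1d1*, and the PAR bZIP factors *Dbp*, *Tef* and *Hlf*. The list was chosen by measured values, because the expression of *Npas2* and *Hlf* had shifted with environmental enrichment (EE) in these same samples. Differences between EE and standard housing (SH) are therefore given for these genes as a description without a test, and tests were kept for the regions, for the spread between pools and for other genes of the clock pathway. All 10 genes passed the filter on low counts, and 17040 genes were tested in all.

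The animals were male C57BL6J mice, weaned on day 22 and kept for 8 weeks in SH (3 males to a cage) or in EE (12 males in a larger cage with running wheels and other toys that were changed every week). They were killed at 80 days of age in the late morning, from 10:30 to 12, so each value is a level at a single phase of the day. The light schedule and the order in which the pools were collected are not given in the sources used here. Whole tissue punched from dorsal or ventral DG was pooled over several mice, and each pool gave a dorsal and a ventral sample from the same mice. SH replicate 3 was left out in both regions, which left 4 SH and 5 EE pools, 9 pools and 18 samples. The labels name no transgene or drug, and the 4 groups differed in region and housing.

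The clock is a feedback loop. CLOCK, or its relative NPAS2 that can take its place in the forebrain, pairs with the *Arntl* product (also called BMAL1) and switches on genes with an E-box, among them the *Per* and *Cry* genes, whose proteins then shut the pair off. In a second loop NR1D1 (REV-ERB alpha) represses *Arntl* through ROR elements, and the PAR bZIP proteins DBP, TEF and HLF pass the rhythm on through D-boxes. *Per1* is also induced by light or neuronal activity through CREB at a cyclic AMP response element (CRE). In mouse tissues outside the master clock, *Arntl* mRNA and *Dbp* mRNA are known to peak at nearly opposite times of day.

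Some of the elements that join these genes into a loop were found in the promoter windows of a few members. RefSeq start sites (GRCm38.p6) were held for 9 of the 10 genes, each with a window of 250 bases before and 50 after the start, and *Per2* had no entry. The E-box CACGTG was searched on both strands. It stood in 7.15% of the 32851 promoter windows and in those of 3 of these genes. They were *Cry1*, both starts of *Tef* and 1 of the 2 starts of *Per1*. The stretches around the E-box are shown because they are the sites through which the activators would act, with the E-box in capitals.

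*Per1* E-box, chr11:69098753-69098818, plus strand, 166 bases before the start: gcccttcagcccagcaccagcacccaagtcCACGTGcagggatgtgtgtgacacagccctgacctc

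*Cry1* E-box, chr10:85185079-85185144, minus strand, 60 bases before the start: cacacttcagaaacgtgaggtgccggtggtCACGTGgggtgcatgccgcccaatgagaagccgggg

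*Tef* E-box at the first start, chr15:81802516-81802581, plus strand, 127 bases before the start: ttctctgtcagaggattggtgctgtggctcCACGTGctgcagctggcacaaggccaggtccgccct

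*Tef* E-box at the second start, chr15:81811246-81811311, plus strand, 138 bases before the start: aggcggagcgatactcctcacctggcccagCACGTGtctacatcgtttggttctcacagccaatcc

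The second-loop element was searched as AANT followed directly by AGGTCA or GGGTCA, on both strands, and 0.435% of windows held it. *Arntl* was the single member with a match, 28 bases into the window's transcribed part at one of its starts, and the CRE TGACGTCA (1.79% of windows) was found in the *Hlf* window alone. Both are shown with the element in capitals, the first as the link from NR1D1 to *Arntl* and the second because *Hlf* is a gene for which the list was made. The D-box (TTATGTAA or TTACGTAA, 1.06% of windows) was in none of these windows. A match is a run of letters, and binding was not measured.

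*Arntl* ROR element, chr7:113207528-113207557, plus strand: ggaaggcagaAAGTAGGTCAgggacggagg

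*Hlf* CRE, chr11:90390918-90390956, minus strand, 9 bases before the start: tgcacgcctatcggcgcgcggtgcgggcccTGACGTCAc

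The 18 samples held 22919364 to 28301861 fragments on genes. The *Npas2* counts ran from 274 to 426 fragments a sample and those of *Tef* from 10677 to 15054. On the strand counted, *Nr1d1* is free of the 1075 bases it shares with *Thra* on the other strand, and *Dbp* of the 737 bases it shares with *Sphk2*. *Xist* had 16 counts or fewer in each of the 18 samples. Fragments not assigned to a gene, for whatever reason, took 32.6% to 40.9%. All 5 granule cell markers were detected in every sample, and their summed CPM, the counts per gene after TMM scaling to library size, were 1023 to 1235 in dorsal and 516 to 746 in ventral samples.

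Levels of different genes were compared by TPM, which takes transcript length into account. *Tef* was by far the most abundant at 38.2 to 80.5 TPM over the 18 samples, above *Dbp* (9.36 to 26.3 TPM) in all 18. *Dbp* was above *Hlf* (4.64 to 11.6 TPM) in 18 of 18. *Hlf* and *Clock* (3.81 to 10.5 TPM) had no fixed order, since *Hlf* was higher in 13 of 18 samples. *Clock* was above *Arntl* (3.25 to 9.07 TPM) in 17 samples, and *Arntl* above *Per1* (2.10 to 7.66 TPM) in 18. *Per1* and *Nr1d1* (1.93 to 5.88 TPM) changed places between samples, as did *Per2* (0.87 to 2.62 TPM) and *Npas2* (0.98 to 2.02 TPM), the least abundant members. *Clock* thus had 2.91 to 6.62 times the TPM of *Npas2*, its possible stand-in, in every sample.

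More of the 10 genes were called to the dorsal than to the ventral side. Averaged over both housings, 6 of the 10 genes were higher in dorsal DG and 1 in ventral DG (edgeR quasi-likelihood test, FDR < 0.05 over all genes tested). Of all tested genes 58.4% were called, 29% to the dorsal and 29.3% to the ventral side. A call in either direction was thus common among all genes, and it was in direction that the members leaned to the dorsal side. Their median log2 fold change was 0.19, and that of all tested genes was -0.00. By a rule that also asked for a 20% fold change, the calls fell to 3 dorsal genes, *Arntl*, *Per1* and *Cry1*, and 0 ventral ones.

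Among the activators, *Arntl* was higher in dorsal than ventral DG in 9 of 9 pools. In SH its CPM were 39.3, 39.6, 44.6 and 44.8 in dorsal and 29.8, 30.3, 33.4 and 33.2 in ventral DG (replicates 1, 2, 4 and 5). The dorsal SH values all lay above the ventral SH values, which held for 19.5% of all tested genes. In EE, replicates 1 to 5 had 42.4, 38.8, 44.2, 49.6 and 42.1 CPM in dorsal and 33.0, 34.4, 36.2, 41.6 and 35.0 CPM in ventral DG, where the highest ventral value passed the lowest dorsal one. The mean log2 fold change was 0.34 ± 0.05 (SE; edgeR FDR = 5.02e-06), a level 26.5% higher in dorsal DG. *Clock* was also higher in dorsal DG in 9 of 9 pools, by 0.20 ± 0.04 on the log2 scale (edgeR FDR = 0.000299), with dorsal means of 146.6 ± 8.21 CPM in SH and 141.2 ± 9.40 CPM in EE against ventral means of 125.9 ± 9.56 and 125.3 ± 5.49 CPM (SD, n = 4 in SH and 5 in EE).

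*Npas2* went the other way. Its mean CPM were 10.9 ± 0.774 in dorsal and 12.5 ± 1.21 in ventral SH samples, and 14.0 ± 1.14 in dorsal and 16.0 ± 1.93 in ventral EE samples (SD, n = 4 and 5). It was lower in dorsal DG by -0.19 ± 0.06 on the log2 scale (SE; edgeR FDR = 0.00981), and 2 of 9 pools had the higher value in dorsal DG. *Npas2* was the single activator with more transcript in ventral DG. The ratio of *Npas2* to *Clock* CPM, which is not scaled for length, lay between 0.0669 and 0.116 in dorsal samples and between 0.0894 and 0.164 in ventral samples.

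The repressors were higher on the dorsal side. *Per1* was the most separated of the 10 genes. Its CPM in dorsal SH were 34.0, 31.3, 31.0 and 33.1, and in ventral SH 23.6, 26.3, 25.9 and 25.4. In EE its values were 35.4, 34.7, 36.2, 31.0 and 31.8 CPM in dorsal and 29.3, 28.7, 30.5, 28.4 and 28.9 CPM in ventral DG. Every dorsal value was above every ventral one within each housing, which held for 19.5% of all tested genes in SH and 14.5% in EE. The log2 fold change was 0.29 ± 0.04 (SE; edgeR FDR = 8.38e-07). *Cry1*, whose product is a strong inhibitor of the activators, had the largest fold change of the set, 0.35 ± 0.05 (edgeR FDR = 4.85e-06), with 17.5 to 20.6 CPM in dorsal and 12.9 to 17.8 CPM in ventral samples. *Per2* was higher in dorsal DG in 9 of 9 pools but by little (0.12 ± 0.05, edgeR FDR = 0.0376). That call was lost without EE replicates 1, 3 or 4 or SH replicates 1, 4 or 5, each left out alone (edgeR FDR 0.0533 to 0.0857). It was also lost with all 20 samples (edgeR FDR = 0.0696), in a joint test of both housings (edgeR FDR = 0.107) and with unstranded counts (edgeR FDR = 0.0538).

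The second-loop repressor *Nr1d1* had 15.6 to 24.7 CPM in dorsal and 15.0 to 21.1 CPM in ventral samples, with wide overlap. Its log2 fold change of 0.19 ± 0.08 (SE) passed the test narrowly (edgeR FDR = 0.0423) and did not pass without EE replicates 1, 2 or 3 or SH replicates 1 or 5, each left out alone (edgeR FDR 0.0564 to 0.127). It was also lost with unstranded counts (0.12, edgeR FDR = 0.154) and in the joint test of both housings (edgeR FDR = 0.105).

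The PAR bZIP genes were not called in the model with the count filter and no block. *Dbp* was higher in dorsal DG in 9 of 9 pools, but its levels differed so widely between pools that the log2 fold change of 0.23 ± 0.13 did not pass (edgeR FDR = 0.12). When each pool was its own control, with the pool (the dorsal and ventral sample of the same mice) as a block in the model, the same difference was 0.24 ± 0.03 (edgeR FDR = 2.21e-06). *Dbp* was the single member whose region call changed with the pool block. With that block *Per2* had 0.12 ± 0.04 (edgeR FDR = 0.0063) and *Nr1d1* 0.18 ± 0.06 (edgeR FDR = 0.00725). *Tef* was lower in dorsal DG in 9 of 9 pools by a small amount (-0.04 ± 0.04, 95% interval -0.12 to 0.03, edgeR FDR = 0.333), and *Hlf* had no measurable difference (-0.00 ± 0.05, 95% interval -0.09 to 0.09, edgeR FDR = 0.984). The plot of regional fold changes shows the 10 genes with both housings apart.

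**Figure D1:**
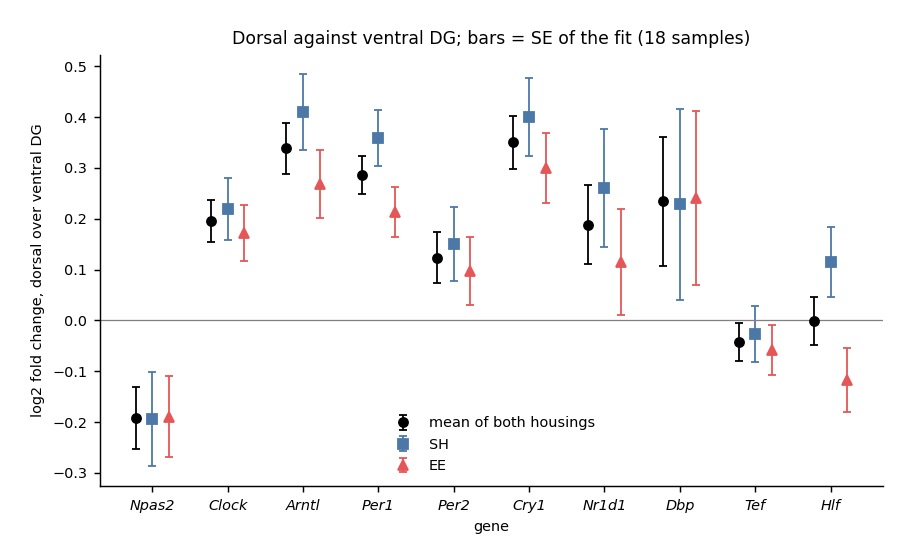
Log2 fold change of dorsal over ventral DG for the 10 genes (vertical axis), as the mean of both housings (black circles), in SH (blue squares) and in EE (red triangles); bars are the standard error of the edgeR fit over 18 samples. *Arntl*, *Per1* and *Cry1* lie highest, between 0.29 and 0.35 for the mean of both housings, *Npas2* lies at -0.19, and *Hlf* has 0.12 in SH and -0.12 in EE.

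The wider clock pathway leaned the same way. Of 35 other pathway genes, 24 had more transcript in dorsal and 4 in ventral DG, against 29% and 29.3% of all tested genes, and their median log2 fold change was 0.20. In the feedback arms 6 of 12 were higher dorsally, among kinases and ligases that set the stability of PER and CRY 6 of 8, among cofactors 4 of 5, among outputs 5 of 6 and among input genes 3 of 4. The largest dorsal excess was in *Usp2*, a clock-controlled deubiquitinase (0.73 ± 0.04, edgeR FDR = 5.64e-13), with 55.2 ± 3.10 CPM in dorsal and 33.4 ± 1.46 in ventral SH samples (SD, n = 4). *Bhlhe41*, a repressor that competes at E-boxes, followed (0.51 ± 0.05, edgeR FDR = 1.31e-08), then *Sirt1*, a deacetylase (0.42 ± 0.06, edgeR FDR = 9.57e-07). The largest ventral excess was in *Fbxl21*, an F-box protein that binds CRY, at only 2.98 ± 0.260 CPM in dorsal and 5.10 ± 0.281 in ventral SH samples (-0.87 ± 0.07, edgeR FDR = 5.48e-10). *Tsc22d3*, also a glucocorticoid target (-0.51 ± 0.08, edgeR FDR = 6.57e-06), and *Rorb*, which acts on ROR elements (-0.25 ± 0.07, edgeR FDR = 0.00316), were ventral too.

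Markers of several cell types also differed between the regions. Of all tested genes, 29% were called to the dorsal and 29.3% to the ventral side. All 5 granule cell markers were higher in dorsal DG (edgeR FDR < 0.05), as were 3 of 5 thalamus and habenula markers (84.0 to 120 summed CPM in dorsal against 24.3 to 31.9 in ventral samples) and 8 of 10 activity-induced genes. The 6 choroid plexus markers were all higher in ventral DG, with 23.1 to 208 summed CPM in dorsal and 387 to 1417 in ventral samples. In the interneuron list 3 of 5 markers were ventral and 1 dorsal, and the same held for the CA pyramidal list. Of the astrocyte markers 2 of 5 were ventral, and of the oligodendrocyte markers 2 of 5 were dorsal. Among the 10 activity-induced genes 1 was ventral. *Pou4f1* was at 0 in at least 1 ventral sample and *Folr1* in at least 1 dorsal EE sample. Their part in the regional differences of the clock genes was not tested, and in tissue punches a different mix of cells and a different amount of RNA per cell cannot be told apart.

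With enrichment, *Npas2* in both regions and *Hlf* in dorsal DG had the largest differences of the set. The values that chose the members are those of this comparison, so they are given without a test. Nothing is read from how many of them pass a threshold in it.

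*Npas2* in SH had 10.0, 11.4, 11.7 and 10.5 CPM in dorsal and 11.3, 13.6, 11.5 and 13.4 CPM in ventral DG. In EE it had 15.0, 14.5, 15.0, 12.9 and 12.7 CPM in dorsal and 16.2, 19.3, 14.9, 14.4 and 15.5 CPM in ventral DG. Every EE value was above every SH value in both regions, which held for 2.21% of all tested genes in dorsal and 1.28% in ventral DG. The log2 fold changes were 0.36 ± 0.09 in dorsal and 0.36 ± 0.09 in ventral DG (SE), levels 28.7% and 28.2% higher than in SH. On the deposited TPM, whose total is set by short RNAs, *Npas2* had overlapping dorsal values of 1.55 ± 0.396 in SH and 1.43 ± 0.266 in EE, so that the dorsal mean was lower in EE on this scale, and ventral values of 1.47 ± 0.156 and 1.65 ± 0.318 (SD, n = 4 and 5). With SH replicate 3 included and all 20 samples scaled together, that pool had 12.6 CPM in dorsal DG, just under the lowest EE value of 12.7, and 13.3 CPM in ventral DG. *Clock*, by contrast, had log2 fold changes of -0.05 ± 0.06 and -0.01 ± 0.06, and *Arntl* of 0.05 ± 0.07 in dorsal and 0.19 ± 0.07 in ventral DG.

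*Hlf* had its larger EE difference in dorsal DG by this description. In dorsal SH it had 102, 89.5, 88.4 and 94.7 CPM and in dorsal EE 85.0, 72.8, 78.2, 68.3 and 75.1 CPM. All dorsal EE values lay below all dorsal SH values (1.78% of tested genes did so). On the TPM scale its dorsal values were 9.62 ± 1.91 in SH and 6.38 ± 1.09 in EE (SD, n = 4 and 5) and overlapped. In ventral DG it had 81.5, 92.6, 84.9 and 87.0 CPM in SH and 84.1, 89.1, 76.3, 73.3 and 89.0 CPM in EE, and the groups overlapped. The log2 fold changes were -0.30 ± 0.07 in dorsal and -0.07 ± 0.07 in ventral DG, and their difference was -0.23 ± 0.09. In SH the gene was slightly dorsal (0.12 ± 0.07) and in EE slightly ventral (-0.12 ± 0.06), which is why its mean over both housings was near 0.

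*Tef* shared the direction of *Hlf* with far less spread. Its SH samples were nearly alike, at 514, 518, 530.2 and 521 CPM in dorsal and 532, 526, 534 and 531 CPM in ventral DG. The EE samples were lower and more scattered, at 470.1, 517, 451, 435 and 453 CPM in dorsal and 508, 522, 458, 471 and 462 CPM in ventral DG. The ventral EE values all lay below the ventral SH values (1.17% of tested genes did so), and in dorsal DG a single EE sample (replicate 2) reached into the SH range. *Dbp*, the third PAR bZIP gene, had log2 fold changes of -0.18 ± 0.18 and -0.19 ± 0.18, within the spread between pools.

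*Per1* and *Per2* had opposite signs in this description. *Per1* had log2 fold changes of 0.06 ± 0.05 in dorsal and 0.21 ± 0.05 in ventral DG. In ventral DG its EE values of 28.4 to 30.5 CPM were all above the SH values of 23.6 to 26.3 CPM (1.28% of tested genes did so). *Per2* had -0.20 ± 0.07 and -0.15 ± 0.07, with 18.2 to 21.0 CPM in dorsal EE against 19.3 to 25.4 CPM in dorsal SH. *Cry1* had -0.01 ± 0.07 and 0.09 ± 0.07, and *Nr1d1* -0.11 ± 0.11 and 0.04 ± 0.11. The difference between the 2 regions' EE effects is built from the comparison that chose the members, so it too is given without a test. No regional difference of EE effects is therefore claimed for any of the 10 genes. Of all tested genes, 0.00587% were called for it by edgeR.

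**Figure D2:**
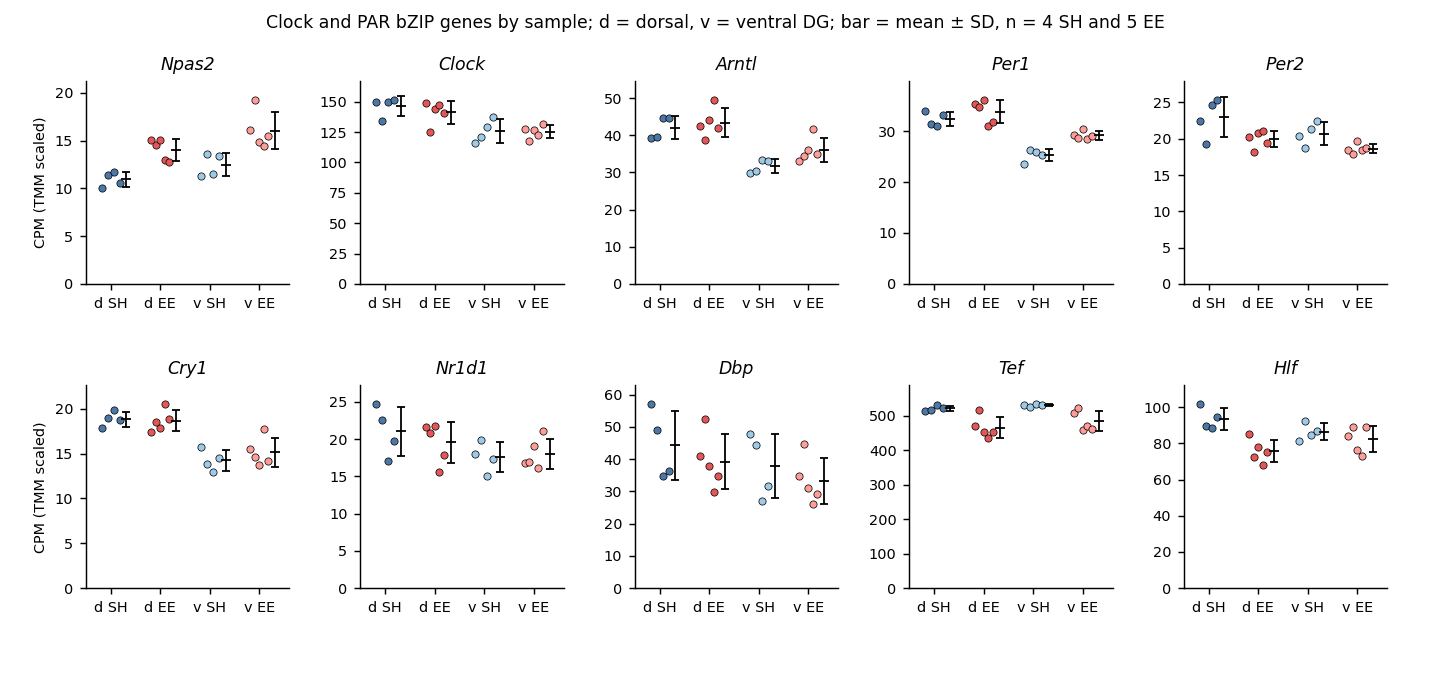
CPM after TMM scaling (vertical axes, from 0) of the 10 genes in each of the 18 samples, by group, with the mean ± SD beside the points (n = 4 SH and 5 EE; d, dorsal; v, ventral). *Npas2* EE points lie above the SH points in both regions, *Hlf* EE points lie below in dorsal DG, and *Dbp* is widely spread in every group, from 26.2 to 57.2 CPM.

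**Figure D3:**
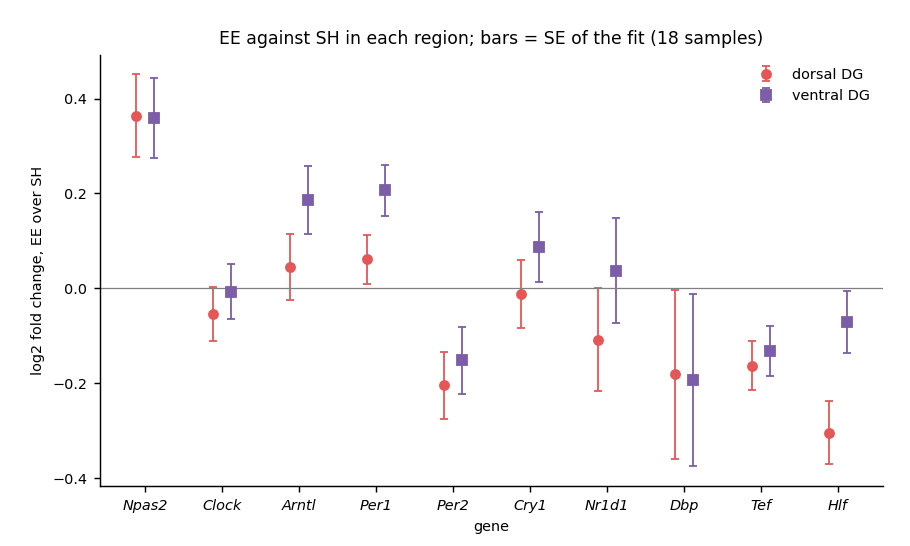
Log2 fold change of EE over SH (vertical axis) for the 10 genes in dorsal DG (red circles) and ventral DG (purple squares); bars are the standard error of the edgeR fit over 18 samples. *Npas2* lies at 0.36 in both regions, and *Hlf* at -0.30 in dorsal and -0.07 in ventral DG.

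Other clock pathway genes could be tested for EE. In dorsal DG 1 of 35 was higher and 0 lower, and in ventral DG 1 was higher and 1 lower, against 0.411% higher and 0.305% lower among all tested genes in dorsal DG and 0.182% higher and 0.0646% lower in ventral DG. *Sik1*, a kinase that restrains the response of the clock to light, rose in both regions. It had 9.98 ± 0.661 CPM in dorsal SH and 12.4 ± 0.556 in dorsal EE, 9.59 ± 0.676 in ventral SH and 13.2 ± 1.14 in ventral EE samples (SD, n = 4 and 5). Its log2 fold changes were 0.31 ± 0.07 (edgeR FDR = 0.0383) and 0.46 ± 0.07 (edgeR FDR = 0.00229). *Per3*, the third *Per* gene, fell in ventral DG, from 31.5 to 34.7 CPM in SH to 24.3 to 31.2 CPM in EE (-0.29 ± 0.06, edgeR FDR = 0.0468). In dorsal DG it had -0.20 ± 0.06 (edgeR FDR = 0.172), and the difference between the regions was 0.09 ± 0.09 (edgeR FDR = 1.00).

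Genes induced by neuronal activity moved with EE too. Of 10 such genes, 5 rose in dorsal and 7 in ventral DG and 0 fell, and their summed CPM were 197 to 243 in dorsal SH against 269 to 316 in dorsal EE, and 140 to 153 in ventral SH against 203 to 254 in ventral EE samples. Their part in the EE values of *Npas2*, *Per1* and *Sik1* was not tested. Of the 46 markers of 9 cell types, 1 (a microglial marker) was called in dorsal and 0 in ventral DG.

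The genes whose levels ran most closely with those of *Npas2* and *Hlf* were found over the 18 samples, by Pearson correlation of log2 CPM after the mean of each region was taken out. This measure includes the housing difference, so it is a description. For *Npas2* they were *Pik3r1* (r = 0.892), *Tmsb10* (r = 0.890) and *Hmbox1* (r = 0.882), which had EE log2 fold changes of 0.15 to 0.30 in dorsal and 0.17 to 0.27 in ventral DG. For *Hlf* they were *Mid2* (r = 0.912), *Nhsl1* (r = 0.849) and *Diaph1* (r = 0.845). Of these, *Diaph1* had EE log2 fold changes of -0.27 ± 0.05 in dorsal and -0.12 ± 0.05 in ventral DG.

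The widest variation in the set was between pools of the same group. *Dbp*, a direct target of the activator pair, had a within-group SD of 0.331 on the log2 scale, more than 97.4% of 12201 expressed genes, whose median SD was 0.101. *Nr1d1* was next (0.193, more than 91.0% of expressed genes). *Tef* (0.0688) and *Per1* (0.0715) were among the steadier genes. In dorsal SH, *Dbp* had 57.2, 48.9, 34.8 and 36.2 CPM, and the same pools had 47.9, 44.4, 27.1 and 31.6 CPM in ventral DG. In EE, *Dbp* had 40.8, 52.5, 37.9, 29.6 and 34.7 CPM in dorsal and 34.7, 44.7, 31.1, 26.2 and 29.1 CPM in ventral DG. The highest sample of a group had 1.64 to 1.77 times the *Dbp* CPM of the lowest. A pool that was high in dorsal DG was high in ventral DG as well.

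To measure this, each sample's log2 CPM was taken as a deviation from its group mean, which removes region and housing, and the dorsal deviations of the 9 pools were compared with the ventral ones. All 2880 exchanges of pools within housings gave an exact permutation test, whose smallest p is 0.000347. *Dbp* had r = 0.980 (exact permutation p = 0.000347, the smallest possible) and Spearman's rho = 0.983 (exact permutation p = 0.000694). *Per2* had r = 0.915 (exact permutation p = 0.00451) and rho = 0.833 (exact permutation p = 0.0319). *Arntl* had r = 0.896 (exact permutation p = 0.0146) and rho = 0.800 (exact permutation p = 0.0264), and *Tef* r = 0.842 (exact permutation p = 0.0354) and rho = 0.883 (exact permutation p = 0.0278). Without the 2 pools farthest from the median in dorsal DG, r was 0.958, 0.756, 0.878 and 0.858 for *Dbp*, *Per2*, *Arntl* and *Tef*. *Arntl* did not pass without EE replicate 4 (r = 0.786, exact permutation p = 0.108), nor *Tef* without EE replicates 1, 2, 3 or 5, each left out alone (exact permutation p 0.0903 to 0.345).

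The 4 genes with an exact permutation p under 0.05 were 4 of 10, where 7.75% of all tested genes had a positive r at that level. With p values adjusted over all 17040 genes, 0 passed (1476 were under 0.05 unadjusted), and *Dbp* had an FDR of 0.370. Only 3 of the 17040 genes, *Dbp* included, had an r as high as that of *Dbp*. The other 6 members did not pass, with r of 0.50 for *Clock*, 0.43 for *Nr1d1*, 0.30 for *Npas2*, 0.18 for *Cry1*, 0.03 for *Hlf* and -0.01 for *Per1*. Their exact permutation p lay between 0.192 and 0.983. The median r of the 10 genes was 0.463, that of all tested genes 0.219. *Npas2* and *Hlf*, the genes with the largest EE differences, were thus not among those that varied together in both regions of a pool.

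**Figure D4:**
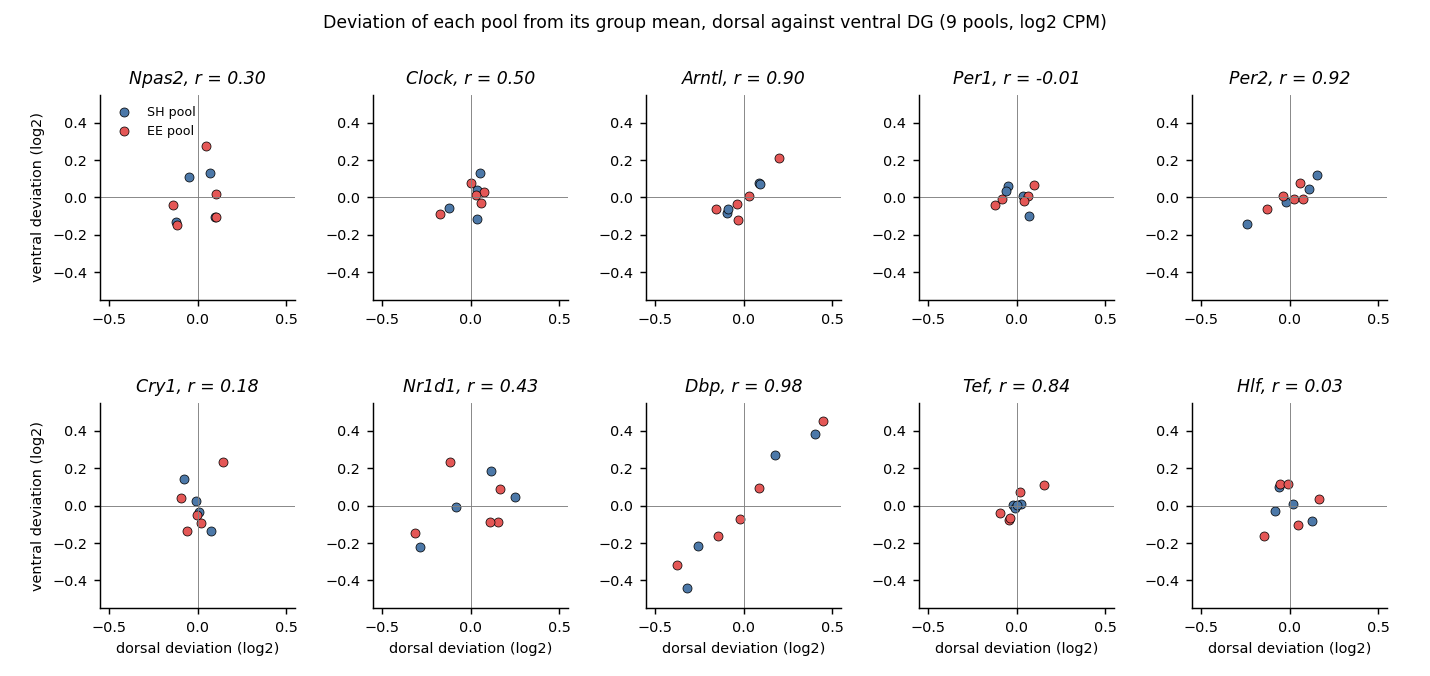
Deviation of each of the 9 pools from its group mean in dorsal DG (horizontal axes, log2 CPM) against ventral DG (vertical axes), 1 panel a gene, with SH pools in blue and EE pools in red. *Dbp* points follow a line from -0.44 to 0.45 (r = 0.98), while *Per1* and *Hlf* points form a cloud (r = -0.01 and 0.03).

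*Arntl* and *Dbp* were also related to each other over the 9 pools. With dorsal and ventral deviations averaged for each pool, *Arntl* was low where *Dbp* was high (r = -0.864, exact permutation p = 0.0156, and rho = -0.950, exact permutation p = 0.00174). Without the 2 pools farthest from the median of *Arntl*, r was -0.851, and with each pool left out in turn r stayed between -0.920 and -0.841 with p under 0.05. *Clock* also ran against *Dbp* (r = -0.778, exact permutation p = 0.0462, and rho = -0.650, exact permutation p = 0.114), but r was -0.585 without its 2 farthest pools, and p was over 0.05 (0.0625 to 0.326) when any of 7 pools, all but EE replicates 1 and 4, was left out alone. *Nr1d1* ran with *Dbp* (r = 0.720, exact permutation p = 0.0597) and against *Arntl* (r = -0.774, exact permutation p = 0.0347), and r was -0.367 for the latter without the 2 farthest pools, so that relation rested on them.

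In all, 45 pairs were computed and 7 had an exact permutation p under 0.05, 3 positive and 4 negative. These p values are unadjusted, and the genes were chosen with results known. The other 4 pairs were *Clock* with *Per2* (r = 0.849, exact permutation p = 0.00694, rho = 0.800), *Arntl* with *Hlf* (r = -0.846, exact permutation p = 0.0128, rho = -0.800), *Npas2* with *Tef* (r = 0.744, exact permutation p = 0.0347, rho = 0.633) and *Nr1d1* with *Hlf* (r = 0.645, exact permutation p = 0.0410, rho = 0.433). Without the 2 farthest pools, r was 0.689, -0.447, 0.390 and -0.346 for these pairs, so the last 3 rested on those pools. Leaving out EE replicate 2 ended the call for *Clock* with *Per2* (r = 0.890, exact permutation p = 0.0729). *Per2* ran against *Dbp* (r = -0.699, exact permutation p = 0.0670). Of the other 9 members, 2 had such a relation with *Dbp*, both negative, where 12.7% of all other tested genes had a positive and 13.9% a negative one. Relations with *Dbp* were thus common across the transcriptome. No correlation was computed within a housing, which held 4 or 5 pools.

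**Figure D5:**
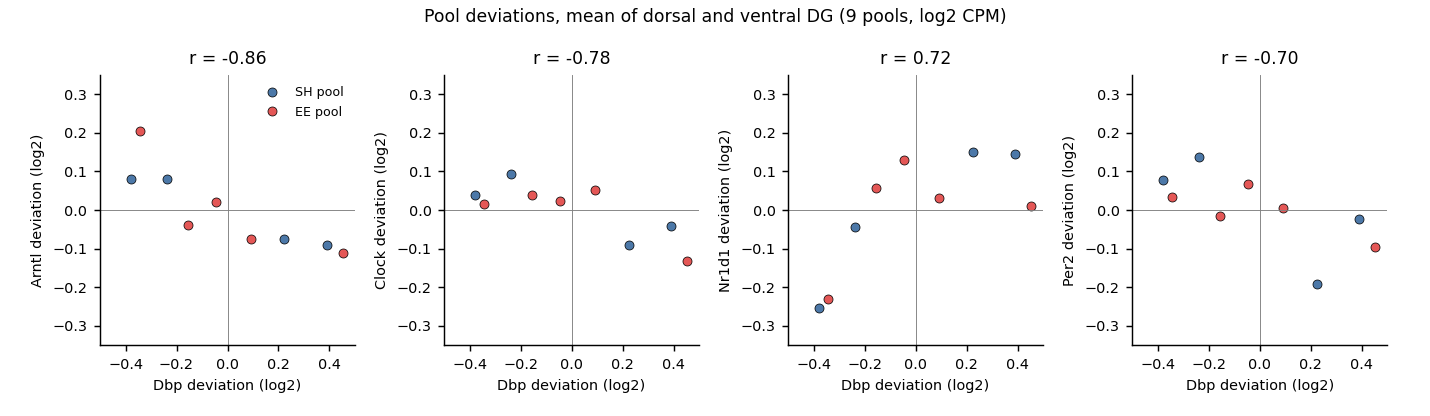
Deviation of each of the 9 pools from its group mean, averaged over dorsal and ventral DG, for *Dbp* (horizontal axes, log2 CPM) against *Arntl*, *Clock*, *Nr1d1* and *Per2* (vertical axes), with SH pools in blue and EE pools in red. *Arntl* declines from left to right (r = -0.86), as do *Clock* (r = -0.78) and *Per2* (r = -0.70), and *Nr1d1* climbs (r = 0.72).

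Other measures moved with these pool differences. The *Dbp* deviation of the 9 pools had an r of -0.893 with the summed CPM of 5 interneuron markers, 0.787 with astrocyte and 0.743 with oligodendrocyte markers. It had an r of 0.750 with the share of TPM in 7SL RNA and 0.634 with the share of fragments not assigned to a gene. With granule cell markers its r was -0.608, with CA pyramidal markers -0.606, with activity-induced genes -0.295 and with the log2 fragment count 0.120. With microglia, endothelial, choroid plexus, and thalamus and habenula markers its r lay between 0.214 and 0.457. *Arntl* had an r of -0.878 with the 7SL share, 0.737 with granule cell, -0.701 with astrocyte and 0.684 with interneuron markers. All 5 interneuron markers were detected in every sample, with summed CPM of 401 to 494 in dorsal and 425 to 514 in ventral samples. The part of these measures in the pool differences was not tested. Scaling mattered as well. On log2(TPM + 1), whose total is set by short RNAs (61.7% to 74.9% of TPM for 7 of them), *Dbp* had a dorsal to ventral r of 0.609 (exact permutation p = 0.126) and *Arntl* with *Dbp* -0.489 (exact permutation p = 0.210). With the 7SL RNAs taken out of TPM they were 0.545 (exact permutation p = 0.202) and -0.435 (exact permutation p = 0.257). After TPM was rescaled by median ratios of the tested genes, they were 0.942 (exact permutation p = 0.00312) and -0.897 (exact permutation p = 0.00833). The last 2 scalings were added after the TPM values were seen. In both housings, replicates 1 and 2 had more *Dbp* than their group mean in both regions and replicates 4 and 5 had less. The labels do not say what pools of the same number shared.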

How the data were processed

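Raw counts per gene, without normalization, were deposited by the authors for 20 RNA-Seq samples (paired stranded total RNA reads, mm10; the submitters' processing notes name Trim Galore 0.4.0, STAR 2.5.1b and RSEM 1.2.30). The same samples have an expected count, TPM and FPKM for each gene, deposited by the authors and scaled for length in the case of TPM and FPKM. Bisulfite and TAB sequencing samples were not used here.

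The reverse-strand counts of 46480 genes were used. Ensembl identifiers were matched to Gencode symbols (45968 had one). SH replicate 3 was left out in both regions because the study excluded an SH sample for *Xist*, without naming it, and it is the replicate with high *Xist*. A gene was tested when at least 2 of 18 samples had over 10 counts (17040 genes), with TMM scaling and edgeR 4.0.16 in R 4.3.3, all 4 groups in a single quasi-likelihood model, and p values adjusted over all tested genes. A region value is the mean of both housings. Expressed genes had TPM over 1 in at least 3 samples. Dorsal and ventral samples of a pool came from the same mice, as a figure legend of the study shows. The correlation of their deviations over all genes was -0.0771 to 0.165 in 9 pools. Pool deviations were tested by exact permutation of pools within housings (python 3.11.15, scipy 1.17.1), and the adjustment was made over all tested genes rather than over the members. The members and all lists were chosen with earlier results of these data known. Named genes are the members, pathway genes called for EE or with the 3 largest regional calls each way, and the 3 genes most like *Npas2* and *Hlf*. TPM is dominated by short RNAs (61.7% to 74.9% for 7 of them), so it was used to rank genes and CPM to compare samples. The scripts were tested on simulated data. Alternatives were other tests (likelihood ratio, DESeq2 1.42.0), scalings, filters, count columns, all 20 samples, blocks and fits without each pool.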

Additional observations from a re-analysis of the deposited data

Results flagged for a closer look

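1 value among the 40 sets tested (10 genes in 4 groups) stood apart from the others of its group by Dixon's ratio. *Clock* in dorsal SH replicate 2 had 134 CPM, where the nearest of the other 3 samples had 150.0 CPM and the highest 152 CPM. Chance alone marks about 1 set in 20. The ventral sample of the same pool had 121 CPM of *Clock*, inside the range of its group. The pool stayed in all values, and without it *Clock* kept its dorsal excess.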

How the results depend on the processing

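The dorsal calls of *Clock*, *Arntl*, *Per1* and *Cry1* and the ventral call of *Npas2* held in 11 other settings and in 9 fits that each left out a pool. With a 20% fold change the region counts were 3 dorsal and 0 ventral genes. The dorsal count was 5 with all 20 samples and 4 in the joint test of both housings or with unstranded counts. It was 7 with the pool block and without the count filter. *Dbp* was called in both (edgeR FDR = 2.21e-06 and 0.0364). Without a pool it was 4 to 6 and the ventral count 1. *Hlf*, with a regional log2 fold change near 0, had 0.00068 with the TPM filter and -0.034 to 0.026 without a pool. The block in region tests was the pool, and in EE tests the replicate number within a region. Nothing is read from the members' counts for EE, since that comparison chose them. With edgeR 0 were up and 1 down in dorsal DG and 0 in ventral DG. These counts are no test of the members and only show how far they moved with the setting. In dorsal DG the upward count was 1 with DESeq2, RLE size factors, the likelihood ratio test, no count filter, the replicate block, robust dispersion or separate fits of each region. Without a pool it was 0 to 1, and the downward count 0 to 2. In ventral DG the upward count was 1 with DESeq2, the likelihood ratio test, no count filter or the replicate block.

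Over all tested genes, counts for EE ran from 60 to 196 up and 42 to 143 down in dorsal DG and from 22 to 102 up and 3 to 37 down in ventral DG. The highest of each came with the replicate block, the replicate number as a term. Numbers are shared by SH and EE. Deviations of same-numbered SH and EE samples of a region had an r over genes of 0.0756 to 0.157, at or under 0.1 in 2 of 8 pairs. Dorsal and ventral samples of a pool had -0.0771 to 0.165. Each SH sample was also set against the 5 EE samples of its region, and 5 of 8 SH samples correlated best with their own number. The labels name nothing that the number marks.

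On log2(TPM + 1), 1 member passed for the dorsal to ventral pool deviations and 30 of 45 pairs had p under 0.05. The member was *Cry1* (r = 0.643, exact permutation p = 0.0174), which did not pass on CPM. *Dbp*, *Per2*, *Arntl* and *Tef*, which passed on CPM, did not pass on this scale (exact permutation p 0.0514 to 0.582). There *Per1* (r = 0.229), *Nr1d1* (r = -0.022), *Arntl* with *Nr1d1* (r = 0.385) and *Arntl* with *Hlf* (r = 0.719) changed sign. With 7SL RNA taken out, added after the data were seen, 0 members and 27 pairs passed, and r was -0.017 for *Npas2*, 0.059 for *Per1*, -0.019 for *Nr1d1*, -0.10 for *Tef*, -0.026 for *Hlf*, 0.338 for *Arntl* with *Nr1d1* and 0.622 for *Arntl* with *Hlf*. With TPM rescaled by median ratios, also added, 4 members and 4 pairs passed, and *Npas2* (r = -0.427) and *Per1* (r = 0.066) changed sign. With all 20 samples *Hlf* had r = -0.010. Without a pool, 3 to 4 members and 4 to 8 pairs passed, the median r of the members was 0.382 to 0.635, and r was -0.341 to 0.514 for *Per1*, -0.812 to 0.474 for *Cry1* and -0.522 to 0.244 for *Hlf*. The cause was not tested. For *Dbp* r was 0.971 to 0.990 in those fits.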

Other observations

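Some genes outside the clock lists followed *Dbp* over the 9 pools, in either direction, more closely than any other member did. These were chosen after their values were seen. With the pool deviations averaged over both regions, the highest correlations among expressed genes were those of *Acads*, a mitochondrial acyl-CoA dehydrogenase (r = 0.991), *Snx18*, an endosomal sorting protein (r = 0.985), and *Agt*, the angiotensinogen gene that astrocytes express (r = 0.975). The lowest were *Kbtbd2* (r = -0.978), *Srek1*, a splicing regulator (r = -0.977), and *Nvl* (r = -0.976). *Hsp90b1*, the endoplasmic reticulum chaperone, was close to them (r = -0.974). They are extremes of 12201 genes over 9 pools and carry no test.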
